A study of Mus musculus with 15 samples.

Results

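Acyl-CoA thioesterases are the enzymes that split fatty acyl-CoA into a free fatty acid and coenzyme A. The 8 genes described here, Acot1, Acot2, Acot3, Acot4, Acot7, Acot8, Acot12 and Acot13, were chosen by gene name, and all 8 were found among the 54532 genes of the liver and lung count tables. The RNA came from frozen liver and lung of male, wild-type C57BL/6J mice, whose age the labels give as 28 weeks. The age is uncertain, since the study's text also uses 28 weeks for the feeding time and its methods describe mice that would be older. The control group (CS) ate the control diet, and the PS group ate that diet with 2% phytosterols added, the cholesterol-like sterols of plants. Liver libraries came from 4 mice on the control diet and 5 on the PS diet, lung libraries from 3 on each diet, and 6 mice gave both tissues. Each library was poly(A)-selected RNA from a piece of whole tissue, in which fewer cells of a type and less RNA per cell cannot be told apart.

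The thioesterases work against the acyl-CoA synthetases, which join fatty acids to coenzyme A, and so help to set the balance between free fatty acid, acyl-CoA and free coenzyme A in each compartment of the cell. Acot1 acts on long-chain acyl-CoA in the cytosol, Acot2 in the mitochondrial matrix, and Acot3, Acot4 and Acot8 in peroxisomes. Acot12 is a cytosolic enzyme that uses acetyl-CoA, Acot7 is a cytosolic long-chain enzyme best known from brain, and Acot13 is a small enzyme associated with mitochondria. Several of these genes, Acot1 among them, are known targets of PPARα, the nuclear receptor that switches on fatty acid oxidation in fasted liver.

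Total counts per library were 14410117 to 17625179 in liver and 17934930 to 19396057 in lung. Hepatocyte markers summed to at least 79585 CPM (counts scaled to the library's size) in every liver and to at most 136 CPM in any lung, and alveolar type II markers summed to at least 18703 CPM in every lung and at most 4.11 CPM in any liver, so each library carried the markers of its labelled tissue. Several libraries stood apart. Lung CS replicate 3 held skeletal muscle markers summing to 349 CPM against 3.03 to 6.21 CPM in the other lungs, lung PS replicate 1 held heart muscle markers at 486 CPM against 41.0 to 263 CPM, and liver CS replicate 2 had 26.6 CPM of the clock output gene Dbp against 0.83 to 4.41 CPM in the other CS livers and 28.4 to 112 CPM in the PS livers. The same liver also stood apart by the immunoglobulin gene Ighm, at 131 CPM against 4.08 to 11.7 CPM in the other livers, while the B cell marker Cd79a had its lowest value of the 9 livers there, 0.067 CPM from 1 count. It stood apart as well by the median deviation of genes in the highest quartile of GC content minus that in the lowest, 0.49 on the log2 scale against -0.32 to 0.16.

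Acot1, Acot2, Acot3 and Acot4 lie side by side on the plus strand of chromosome 12 (GRCm38), Acot2 at chr12:83987861-83993873, Acot1 at chr12:84009490-84018371, Acot4 at chr12:84038379-84048601 and Acot3 at chr12:84052144-84060402. Acot7 lies on chromosome 4 (chr4:152178134-152271855, plus strand), Acot8 on chromosome 2 (chr2:164792765-164804882, minus strand), and Acot12 (chr13:91741512-91786148, plus strand) and Acot13 (chr13:24817948-24831540, minus strand) on chromosome 13. Over 1236 aligned coding bases of the GENCODE M21 models, Acot1 and Acot2 were 95.3% identical, while Acot1 was 85% identical to Acot3 and 76.5% identical to Acot4. Acot1 has 1257 coding bases and Acot2 has 1359, so some bases of each lie outside this comparison. A stretch of exon 3 is shown for both genes, with the bases that differ in capitals. It covers chr12:84016886-84017005 in Acot1 and chr12:83992608-83992727 in Acot2, both read 5′ to 3′ on the plus strand.
Acot1: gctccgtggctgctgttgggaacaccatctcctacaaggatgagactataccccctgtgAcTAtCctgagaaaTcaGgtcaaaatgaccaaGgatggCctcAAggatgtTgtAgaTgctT
Acot2: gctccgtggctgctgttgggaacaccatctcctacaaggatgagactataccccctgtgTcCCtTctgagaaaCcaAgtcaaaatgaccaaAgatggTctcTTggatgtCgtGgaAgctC
The stretch of 120 bases, picked as the one with the most differences, held 14 of the 58 between the aligned coding sequences. The longest run without a difference was 273 bases. Of the windows of 150 bases, the length of a read, 12.4% of those in the Acot1 transcript and 10.2% of those in the Acot2 transcript also occurred in another gene, as did 13.5% for Acot3. Each of these 3 genes shared windows with another gene of the cluster, so a read lying there could not be placed by its own sequence alone. The reads were paired, and a mate outside the shared part could still place such a read. Pairs were not looked at here. The shared windows of Acot4 (7.7%) and Acot8 (9.5%) were shared with the overlapping genes 4732463B04Rik and Snx21, so there the gene and not the place is uncertain. For Acot7, Acot12 and Acot13 no window was shared. Exons of Acot8 overlapped those of Snx21 on the other strand over 12.3% of their bases, Acot3 and Acot4 overlapped 4732463B04Rik on the other strand over 9.1% and 9.2% and Gm49366 on the same strand over 11.5% and 0.5%, and Acot12 overlapped 4833422C13Rik over 4.5%. The strand setting of the counting is not given in the sources used here, and reads there cannot be assigned to one strand with certainty.

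The 250 bases before the RefSeq start site (GRCm38.p6) are shown for the 4 genes whose liver levels went together most closely, as described further on. Capitals mark CCAAT and AGGTCA, the half-site of nuclear receptors such as PPARα, on either strand, and each sequence is written in the direction of its gene. Acot1 is chr12:84009252-84009501, Acot3 is chr12:84051894-84052143 and Acot4 is chr12:84038129-84038378, all on the plus strand, and Acot8 is chr2:164804882-164805131 on the minus strand.
Acot1: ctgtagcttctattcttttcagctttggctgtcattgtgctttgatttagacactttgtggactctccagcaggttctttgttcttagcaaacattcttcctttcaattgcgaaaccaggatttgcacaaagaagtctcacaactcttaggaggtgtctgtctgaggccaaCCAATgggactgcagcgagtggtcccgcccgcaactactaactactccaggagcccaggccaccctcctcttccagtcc
Acot3: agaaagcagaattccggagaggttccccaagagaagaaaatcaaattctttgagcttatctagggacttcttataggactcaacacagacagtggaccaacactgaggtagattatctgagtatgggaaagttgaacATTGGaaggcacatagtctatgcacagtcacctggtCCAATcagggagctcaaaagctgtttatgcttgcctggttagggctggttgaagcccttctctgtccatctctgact
Acot4: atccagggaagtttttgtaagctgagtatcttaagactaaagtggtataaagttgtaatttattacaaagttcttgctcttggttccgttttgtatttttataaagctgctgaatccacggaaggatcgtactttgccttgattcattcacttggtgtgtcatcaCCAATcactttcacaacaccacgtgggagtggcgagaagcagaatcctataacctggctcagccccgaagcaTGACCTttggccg
Acot8: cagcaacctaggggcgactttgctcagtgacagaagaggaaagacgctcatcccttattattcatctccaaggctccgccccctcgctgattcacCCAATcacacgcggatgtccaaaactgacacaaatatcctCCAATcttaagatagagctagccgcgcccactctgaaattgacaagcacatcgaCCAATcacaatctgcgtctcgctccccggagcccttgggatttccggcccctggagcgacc
CCAAT occurred in 5 of the 7 thioesterase promoters found in the RefSeq table, against 33.8% of 32536 promoters of the same length. AGGTCA occurred in 2 of the 7, those of Acot4 and Acot12, against 14.0% of all promoters. A match is only a match of letters in this window.

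In the livers of the CS group, Acot1 had the highest mean level per length, 112 ± 82.3 CPM per kilobase (SD, n = 4), followed by Acot13 at 96.2 ± 38.8 and Acot12 at 67.0 ± 19.99, and the other 5 genes lay between 12.1 and 23.2. The livers of each gene overlapped those of its neighbour in this order. In the PS livers Acot13 came first, at 138 ± 46.0 CPM per kilobase (n = 5), and its livers lay above all Acot12 values, while Acot1 came after Acot12, at 41.0 ± 26.3. These values use 1 scaling over all 15 libraries, and the length of the deposited gene model, which for Acot1 is 3919 bases while its coding transcript has 2272. The plot of levels by library shows how much wider the livers scattered than the lungs.

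**Figure D1:**
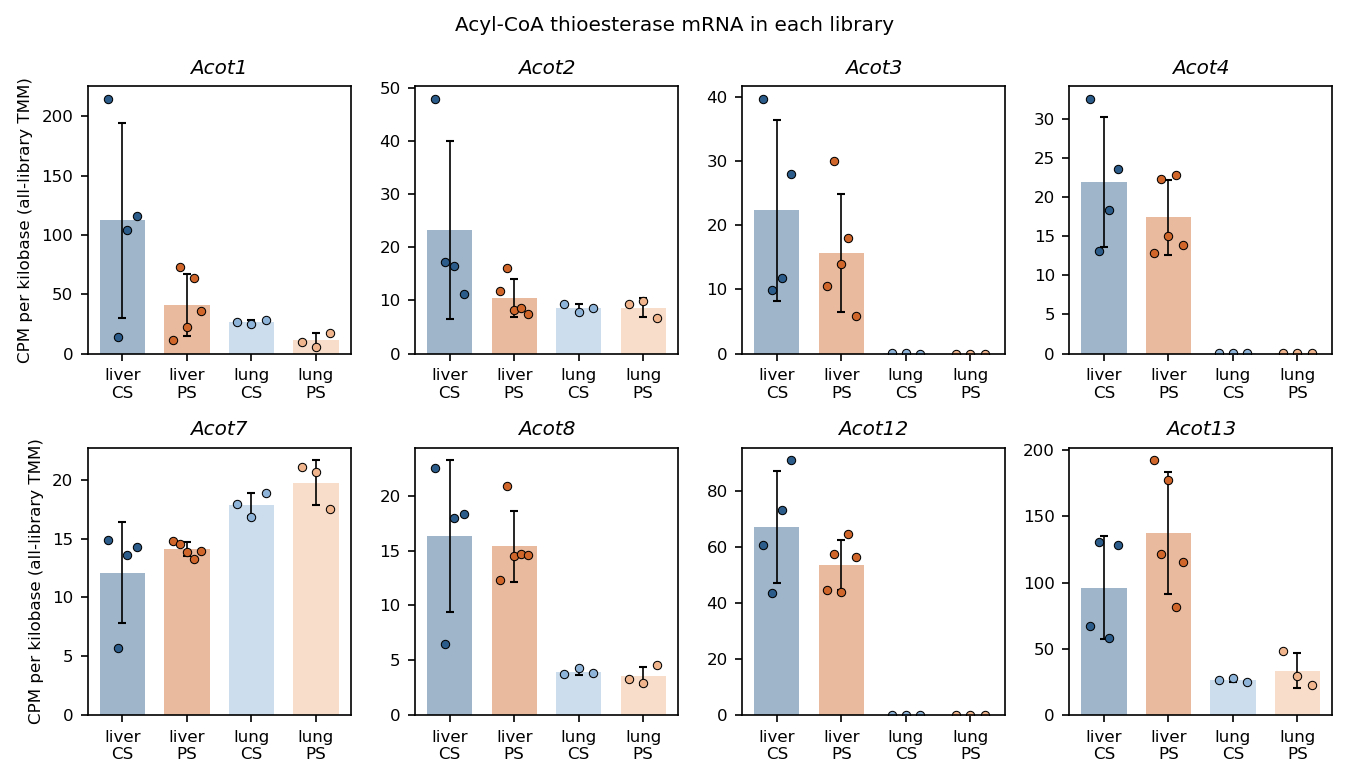
Level of each thioesterase in CPM per kilobase (linear axis from 0) for the livers and lungs of the CS and PS groups, where points are libraries, bars are means and error bars are SD. Acot3, Acot4 and Acot12 sit near 0 in all 6 lungs, Acot7 is the gene whose lungs lie above its livers, and Acot1 is lower in each of the 3 PS lungs than in any CS lung.

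Expressed as a share of the summed level of the 8 genes in a library, which does not depend on the scaling between libraries, Acot1 made up 27.2 ± 15.8% in CS livers and 13.4 ± 8.06% in PS livers. Acot13 made up 29.1 ± 18.2% and 45.2 ± 14.4%. In lung, Acot1 made up 31.6 ± 1.45% in the CS group (n = 3) and 14.8 ± 9.11% in the PS group (n = 3). Acot7 went from 3.25 ± 0.82% in CS liver to 21.4 ± 0.87% in CS lung, and Acot12 from 18.6 ± 4.85% to 0.042 ± 0.027%. The 3 PS lungs ranged from 8.29% to 25.2% for Acot1 and the 3 CS lungs from 30.1% to 32.9%, so the Acot1 share did not overlap between the diets in lung, whereas in liver it did (5.68% to 42.9% against 3.603% to 22.1%).

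**Figure D2:**
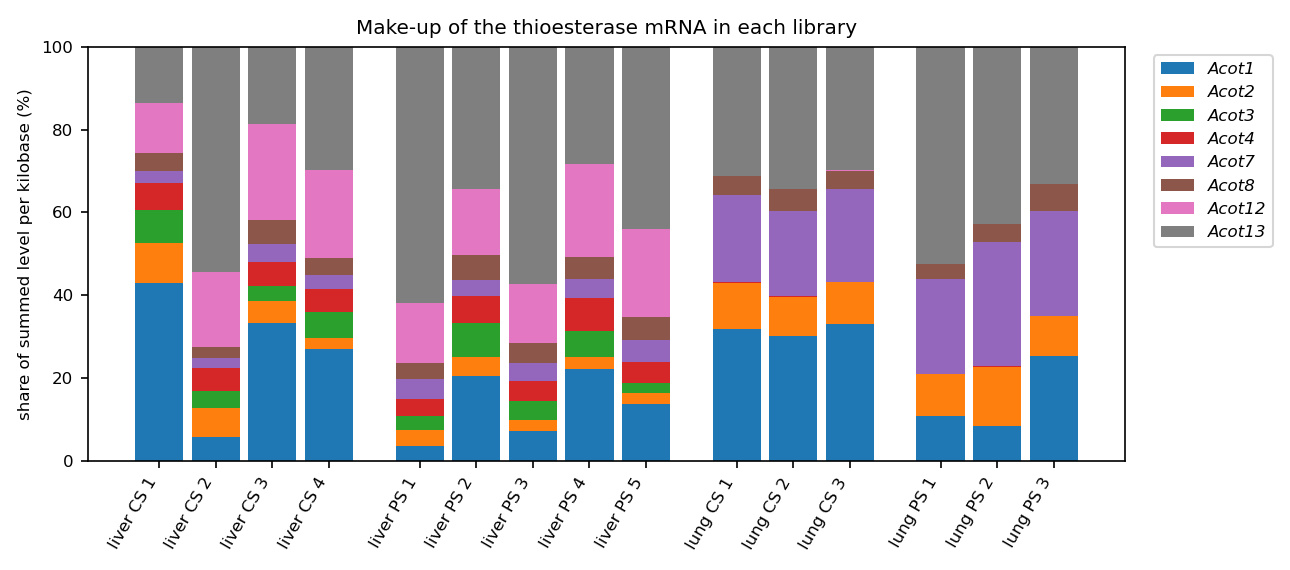
Share of each thioesterase (%) in the summed level per kilobase of the 8 genes, with 1 stacked bar for each of the 15 libraries. Acot12 and the peroxisomal Acot3 and Acot4 are visible in liver and not in lung, where Acot7 and Acot2 fill a larger part, and the Acot1 part is smallest in liver PS replicate 1 at 3.603%.

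The first comparison asked whether the PS diet changed thioesterase mRNA in liver. With edgeR's quasi-likelihood test and Benjamini-Hochberg adjustment over 13195 genes, 0 of the 8 thioesterases passed an adjusted p of 0.05, beside 0.00758% of all genes tested. With DESeq2 0 of the 8 passed as well, where that tool called more genes than edgeR, as counted in the section on processing. At an unadjusted p of at most 0.05, Acot1 and Acot2 were lower and none was higher, against 3.58% of all genes lower and 3.96% higher. Without CS replicate 2 there were 3 lower, Acot12 being added, and 1 higher, Acot13, beside 852 lower and 1039 higher of 13368 genes, and 0 of the 8 passed the adjusted threshold. Without CS replicate 1 there were 0 lower and 0 higher, beside 329 lower and 370 higher of 13430 genes. With each other liver left out, 1 or 2 were lower and 0 higher, beside 330 to 529 lower and 374 to 589 higher of all genes. The signs were negative for 6 genes and positive for 2, with a median log2 fold change of -0.34 beside -0.03 for all genes. In 0 of the 8 were the diets without overlap, against 3.63% of all genes.

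Acot1, the cytosolic enzyme, was measured at 572, 38.0, 278 and 304 CPM in CS livers 1 to 4 and at 30.3, 192, 58.9, 167 and 95.2 CPM in PS livers 1 to 5. One CS liver, replicate 2, lay among the lowest PS livers, and the other 3 lay above all 5 PS livers. The log2 fold change was -1.46 ± 0.65 (SE), with an adjusted p of 0.653 in edgeR. Without CS replicate 2, the liver whose Dbp level was like that of the PS livers, it was -1.83 with an adjusted p of 0.136, and without CS replicate 1 it was -0.94 with 0.990.

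Acot2, the mitochondrial enzyme, was measured at 71.7, 26.8, 24.6 and 16.6 CPM in CS livers and at 17.9, 23.9, 12.4, 12.7 and 11.2 CPM in PS livers. The fold change was -1.16 ± 0.40 on the log2 scale, with an adjusted p of 0.467 in edgeR. CS replicate 1 stood above all other livers, and leaving it out gave a log2 fold change of -0.54 with an adjusted p of 0.973. The groups overlapped through CS replicate 4, which lay below PS replicates 1 and 2.

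Among the peroxisomal enzymes, Acot3 ranged from 24.1 to 92.9 CPM in CS livers and from 13.6 to 69.6 CPM in PS livers, and Acot4 from 62.3 to 148 and from 59.3 to 102 CPM. Their log2 fold changes were -0.51 ± 0.48 and -0.34 ± 0.27, with adjusted p of 0.884 and 0.849 in edgeR. Acot8 was measured at 30.6, 9.16, 24.4 and 24.5 CPM in CS livers and between 17.0 and 28.1 CPM in PS livers, with a log2 fold change of -0.09 ± 0.30. For all 3 genes the diets overlapped, and CS replicate 2 was the lowest CS liver.

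The acetyl-CoA enzyme Acot12 was measured between 102 and 200 CPM in CS livers and between 98.8 and 143 CPM in PS livers, with a log2 fold change of -0.33 ± 0.22 and an adjusted p of 0.777 in edgeR. Acot7 was nearly constant at 18.9 to 21.7 CPM in PS livers and at 19.6 to 21.5 CPM in 3 CS livers, while CS replicate 2 was at 8.62 CPM. Acot13 was the gene with the largest positive difference, 0.51 ± 0.32 on the log2 scale with an adjusted p of 0.774 in edgeR. Its values were 34.0, 69.1, 29.5 and 64.0 CPM in CS livers and 98.8, 61.0, 90.0, 40.6 and 58.4 CPM in PS livers, so 2 PS livers lay above every CS liver.

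Acot13 has a gene model of 744 bases, at percentile 4.1 of the genes tested in liver, and it was lowest in the livers where short genes were lowest. The median deviation of the shortest quartile of genes minus that of the longest, on the log2 scale, was lowest in CS replicate 3 (-0.34), PS replicate 4 (-0.25) and CS replicate 1 (-0.19), the 3 livers with the least Acot13. At the upper end the order was not the same. The highest value was that of CS replicate 4 (0.28), which had less Acot13 than CS replicate 2 and PS replicates 1 and 3. With the trend of each library with gene length removed, the Acot13 difference was 0.40 ± 0.25 in liver and 0.27 ± 0.20 in lung on the log2 scale.

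In lung, 6 of the 8 genes had enough counts to be tested, and Acot3 and Acot12 did not. The test covered 16717 genes, and 0 of the 6 thioesterases passed an adjusted p of 0.05 in edgeR, against 9.22% of all genes. At an unadjusted p of at most 0.05, 1 was lower, Acot1, and none was higher, against 14.5% of all genes lower and 15.6% higher, and with DESeq2 Acot1 also passed the adjusted threshold, at 0.00323, where that tool called 1611 genes higher and 1479 lower of the 16717. The median log2 fold change of the 6 was -0.04, beside 0.01 for all genes, with 3 signs in each direction.

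Acot1 was measured at 186, 169 and 193 CPM in CS lungs and at 68.5, 40.0 and 126 CPM in PS lungs. All 3 PS lungs lay below the lowest CS lung, a pattern without overlap that 1 of the 6 tested thioesterases and 18.8% of all genes showed in this direction. The log2 fold change was -1.22 ± 0.35, with a p of 0.00705 and an adjusted p of 0.0594 in edgeR's model across genes. With the trend of gene length removed the adjusted p was 0.0475, with the trend of GC content removed it was 0.0728, and with each lung left out in turn it ranged from 0.00944 (without PS replicate 3, log2 fold change -1.75) to 0.144 (without CS replicate 3, the lung with skeletal muscle RNA, log2 fold change -1.16). Without PS replicate 1, the lung with heart muscle RNA, the log2 fold change was -1.14 with an adjusted p of 0.118, and without PS replicate 2 it was -0.91 with 0.122.

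Other measures differed between these lungs. Of the 4 alveolar type II markers, Sftpc and Sftpb were higher in all 3 PS lungs than in any CS lung and the other 2 overlapped, with sums of 18703 to 19530 CPM in CS lungs and 21077 to 33440 CPM in PS lungs. Of the 4 ciliated cell markers only Dnah5 was lower without overlap, and the 4 summed to 220.2 to 355 CPM in CS lungs and 92.1 to 257 CPM in PS lungs. Of the 6 heart muscle markers only Actc1 was lower without overlap, and the 6 summed to 166 to 263 CPM in CS lungs and 41.0 to 486 CPM in PS lungs. The median deviation of genes in the highest quartile of GC content minus that in the lowest was -0.19, -0.10 and -0.15 in the CS lungs and -0.01, 0.12 and 0.31 in the PS lungs. The longest GENCODE M21 transcript of Acot1 had a GC content of 46.9%. Fat cell markers, all 5 of them detected in both groups, summed to 49.5, 79.7 and 14.8 CPM in CS lungs and to 49.5, 10.6 and 8.001 CPM in PS lungs, where Acot1 was 126 CPM in the lung with the lowest sum. The 5 fat cell markers each overlapped between the diets. All 3 brown fat markers were detected, of which Cidea was lower in PS lungs without overlap, and they summed to 5.55 to 20.8 CPM in CS lungs and to 1.73 to 5.27 CPM in PS lungs. The part of these cells in the Acot1 difference was not tested.

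The other lung genes differed less. Acot7, the brain-type enzyme, was at 67.0, 62.9 and 71.0 CPM in CS lungs and at 78.5, 78.6 and 69.1 CPM in PS lungs, with a log2 fold change of 0.17 ± 0.13. Acot2 was at 30.2 to 36.1 CPM in CS lungs and 27.1 to 39.1 CPM in PS lungs, with 0.03 ± 0.17. Acot8 was at 13.2 to 15.01 CPM in CS lungs and 10.5 to 16.8 CPM in PS lungs, with -0.11 ± 0.22. Acot13 was at 33.2 to 36.7 CPM in CS lungs and at 63.3, 39.3 and 31.5 CPM in PS lungs, with 0.36 ± 0.24, and PS replicate 1, its highest lung, also had the highest short-gene deviation, 0.29. Without that lung the Acot13 log2 fold change was 0.018 ± 0.15. Acot4, with 2 to 23 counts in each lung, had a log2 fold change of -0.70 ± 0.66.

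**Figure D3:**
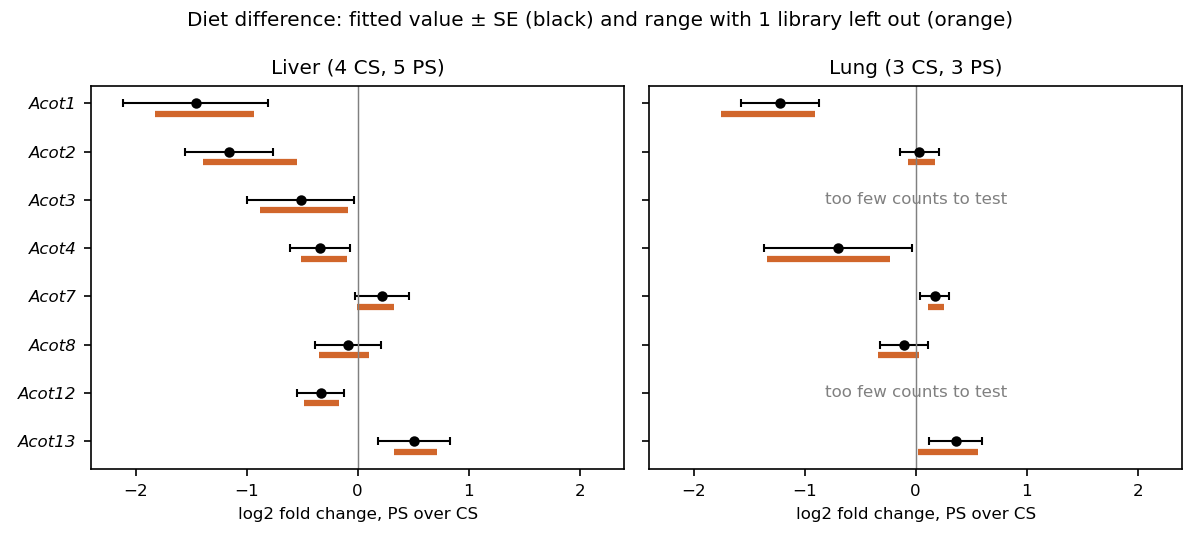
Log2 fold change of PS over CS (axis in log2 units) for each thioesterase in liver and lung, where black points and bars are the edgeR value ± SE and orange bars span the values obtained with 1 library left out. Acot1 lies below 0 in both tissues over the whole orange range, from -1.83 to -0.94 in liver and from -1.75 to -0.91 in lung, and Acot2 does so in liver, from -1.39 to -0.54, while its lung range crosses 0.

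Whether the diet difference was unlike in the 2 tissues was tested in 1 model over all 15 libraries. None of the 6 thioesterases that passed the filter in both tissues passed the adjusted threshold in edgeR, or in DESeq2, and 0.0323% of the 12398 such genes did in edgeR. At an unadjusted p of at most 0.05 there was 1 of 6, Acot2, against 11.4% of those genes. For Acot2, lower in PS liver at the unadjusted threshold and at 0.03 in lung, the diet difference was 1.16 ± 0.54 higher in lung than in liver on the log2 scale, with an adjusted p of 0.454 in edgeR. For Acot1 the difference of differences was 0.18 ± 0.92, with an SE larger than the value.

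The second question was how the thioesterases differ between lung and liver. Acot3 and Acot12 passed the filter on low counts through liver alone, so they are left out of the counts and described by their reads. Of the other 6, on the CS diet 5 were lower in lung and 1, Acot7, was higher at an adjusted p under 0.05 in edgeR, where 35.5% of the 12398 genes that passed the filter in both tissues were lower and 27.1% were higher. On the PS diet 4 were lower and 0 higher, against 36.5% and 27.6%. With total counts in place of TMM (edgeR's scaling by a trimmed mean), 1 of the 6 was lower on the CS diet, Acot4, and Acot7 was higher, while on the PS diet Acot4 and Acot13 were lower and Acot2 and Acot7 higher. The median log2 difference of the 6 was -1.95 on the CS diet and -1.97 on the PS diet, beside -0.18 for those genes on each. Total counts moved the median of all 17696 genes tested by 1.38 on the log2 scale on each diet, and DESeq2's size factors moved it by 0.125 and 0.162.

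Acot12, Acot3 and Acot4 fell furthest in lung. Acot12 had 7, 2 and 3 counts in the CS lungs and 0 in each PS lung, against 1314 to 3122 counts in a liver. The pooled CS level was 1862 times lower in lung than in liver (95% counting interval 1066 to 3603). In the PS group it was at least 5636-fold lower, taking 3 counts over the group as the floor. That rule is other than the counting interval, whose lower limit for the PS group was 4583. The CS lung with 7 counts, replicate 1, was also the one with the most hepatocyte marker RNA, 136 CPM against 10.5 to 39.4 CPM in the other lungs, and the part of stray liver RNA in these counts was not tested.

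Acot3 had 2, 1 and 0 counts in the CS lungs and 0 in each PS lung, against 205 to 1683 counts in a liver. Its CS ratio was 2646 with a counting interval of 905 to 12831, and in the PS group it was at least 1779-fold lower in lung by the same floor. The lower limit of the counting interval for the PS group was 1447. Acot4 was detected in every lung, with 43 counts over the 3 CS lungs and 24 over the 3 PS lungs, and was 351 times lower than in liver on the CS diet (261 to 485) and 472 times lower on the PS diet (317 to 737). These intervals cover counting error only. Under total counts, Acot4 was at -7.05 on the CS diet and -7.46 on the PS diet on the log2 scale, with adjusted p of 5.61e-09 and 3.46e-09 in edgeR.

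Acot8 and Acot13 were lower in lung by less. Acot8 went from 16.3 ± 6.91 CPM per kilobase in CS liver to 3.96 ± 0.28 in CS lung, a log2 difference of -2.04 ± 0.33 with an adjusted p of 4.25e-05 in edgeR, and from 15.4 ± 3.23 to 3.59 ± 0.84 on the PS diet. Acot13 went from 96.2 to 26.6 ± 1.48 CPM per kilobase on the CS diet, a log2 difference of -1.86 ± 0.36, and from 138 to 33.6 ± 13.3 on the PS diet, a log2 difference of -2.04 ± 0.35. With total counts Acot8 was at -0.67 (adjusted p 0.0783) and Acot13 at -0.45 (0.181) on the CS diet in edgeR. On the PS diet they were at -0.71 (0.0544) and -0.66 (0.0487) in the same fit.

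For Acot1 the tissue difference was -2.08 ± 0.71 on the CS diet and -1.90 ± 0.69 on the PS diet, with adjusted p of 0.0162 and 0.0219 in edgeR. With mouse as a block over the 6 mice that gave both tissues it was -1.40 and -0.93, with adjusted p of 0.105 and 0.218, and with total counts it was -0.73 and -0.53, with adjusted p of 0.346 and 0.476 in edgeR. CS lungs, at 24.6 to 27.9 CPM per kilobase, lay inside the range of the CS livers, 13.6 to 215. Acot2 was lower in CS lung by 1.43 ± 0.40 in edgeR, with an adjusted p of 0.00481, but with total counts the log2 difference there was -0.09 with an adjusted p of 0.845. On the PS diet the log2 difference was -0.28 ± 0.38 with an adjusted p of 0.526, 0.05 with mouse as a block, and 1.11 with total counts, past the threshold in the opposite direction at 0.0139.

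Acot7 was the gene with more mRNA in lung. Its level was 17.9 ± 1.014 CPM per kilobase in CS lungs against 12.1 ± 4.30 in CS livers, a log2 difference of 0.56 ± 0.24 with an adjusted p of 0.0461 in edgeR, and 19.7 ± 1.92 against 14.1 ± 0.60 on the PS diet, with 0.48 ± 0.23 and an adjusted p of 0.0669. Every lung, from 16.9 CPM per kilobase upward, lay above every liver, the highest of which was at 14.9, as was so for 28.9% of the genes that passed both filters on the CS diet and 26.9% on the PS diet. With each library left out in turn the log2 difference on the CS diet ranged from 0.33, without liver CS replicate 2 (adjusted p 0.0523), to 0.74, and the adjusted p from 0.0185 to 0.111, and with DESeq2's size factors the PS value was 0.65 with 0.0161. Over the 12 libraries of mice with both tissues, Acot7 did not pass the adjusted threshold on the CS diet.

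**Figure D4:**
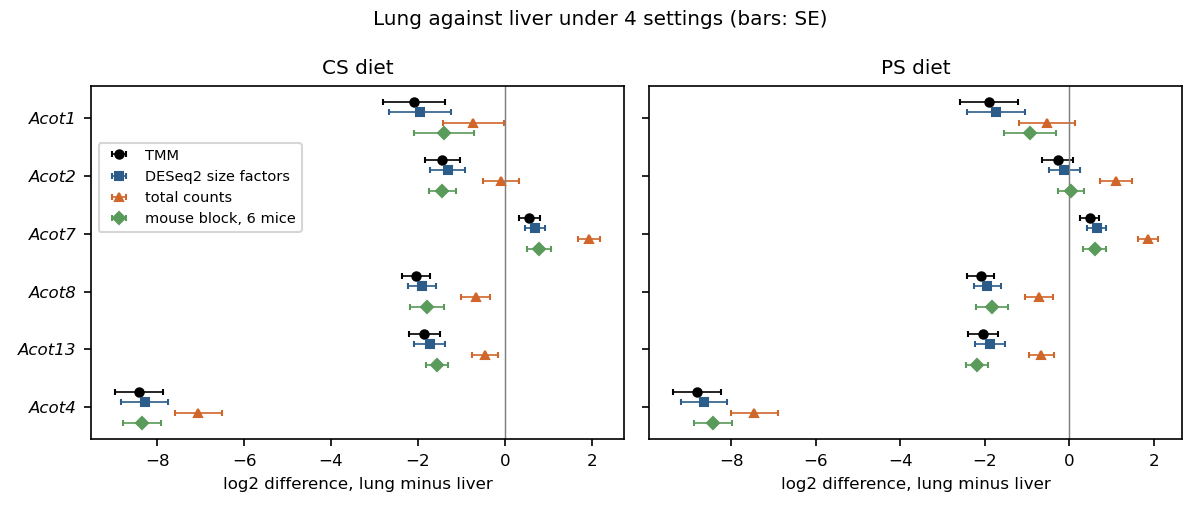
Log2 difference of lung minus liver (axis in log2 units, bars SE) on each diet for the 6 thioesterases with counts in every lung, under TMM scaling, DESeq2 size factors, total counts, and TMM with mouse as a block. Total counts shift every gene to the right of its TMM value by about the shift of all genes, 1.38, so Acot4 stays far below 0, Acot7 stays above it, and Acot2 on the PS diet lies at 1.11 rather than -0.28.

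Across the 9 livers, 3 of 28 pairs of thioesterases were correlated after Benjamini-Hochberg adjustment of exact permutation tests on log2 CPM, two-sided. Acot1 and Acot4 gave Pearson's r of 0.91 (permutation p 0.00120, adjusted 0.0242) and Spearman's rho of 0.92 (permutation p 0.00131, adjusted 0.0367), and r was 0.87 without the 2 livers farthest from the median of Acot1. Acot3 and Acot4 gave r of 0.89 (permutation p 0.00173, adjusted 0.0242) and rho of 0.87 (permutation p 0.00451, adjusted 0.0421), with 0.86 without the 2 farthest. Acot1 and Acot8 gave r of 0.81 (permutation p 0.00396, adjusted 0.0369) and rho of 0.87 (permutation p 0.00451, adjusted 0.0421), with 0.82 without the 2 farthest.

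The pair Acot1 and Acot13 gave a negative r of -0.79 with an exact permutation p of 0.0130, adjusted 0.0728, and so missed the threshold. The points share a library each, so anything that moves several genes within a library enters these values, and diet is not separated from it. For Acot2 and its near-identical neighbour Acot1, r was 0.48 (exact permutation p 0.187, adjusted 0.327) and rho was 0.32 (exact permutation p 0.410, adjusted 0.638), and r was 0.82 without the 2 livers farthest from the median of Acot1.

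**Figure D5:**
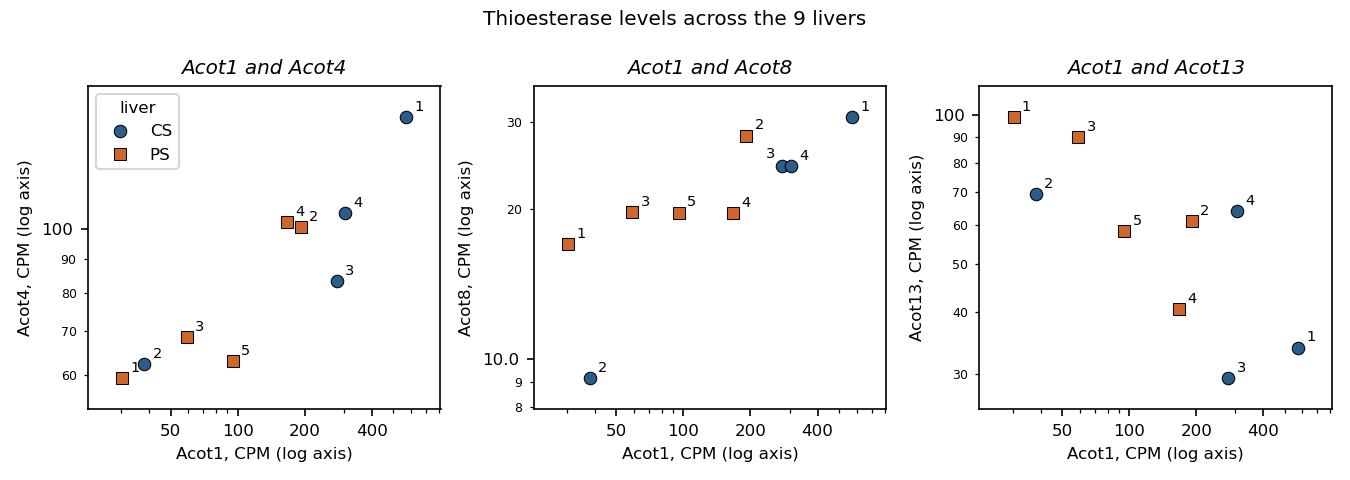
CPM of Acot4, Acot8 and Acot13 against Acot1 in the 9 livers (both axes logarithmic), where circles are CS, squares are PS and numbers are replicates. Acot4 and Acot8 rise with Acot1 (r 0.91 and 0.81), Acot13 runs the other way (r -0.79), and CS replicate 2 lies at the low Acot1 end beside PS replicate 1.

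The genes whose pattern was most like that of a thioesterase were sought among 10526 genes, by Pearson's r of log2 CPM centred on the tissue mean over all 15 libraries, as a description. For Acot1 they were Hacd3, a dehydratase of very-long-chain fatty acid elongation, with r of 0.99, and Slc27a4, a fatty acid transport protein with acyl-CoA synthetase activity, with r of 0.97. Hacd3 moved over a much smaller range, from 124 to 257 CPM in liver while Acot1 spanned 30.3 to 572 CPM, and its diet difference in lung was -0.35 ± 0.16 on the log2 scale. For Acot4 they were Gk, glycerol kinase, with 0.87, and Twistnb with 0.84, and for Acot8 they were Fcgrt with 0.96 and Pex14, a docking protein of peroxisomal import, with 0.95. For Pex14, r was 0.99 over the livers alone and 0.63 over the lungs alone.

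For Acot13 the nearest genes were Atp5j, a subunit of the mitochondrial ATP synthase, and Eif3h, both with r of 0.95. For Acot7 they were Lmo4 with 0.95 and Rexo2 with 0.94. For Acot2 they were Abhd6, a monoacylglycerol lipase, with 0.87, and Lamb3 with 0.86, and the latter rested on the livers, since r was 0.04 over the 6 lungs.

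The other thioesterase genes were looked at in the same way. Of 8 further genes, 5 were tested in each tissue, and 0 passed an adjusted p of 0.05 in edgeR for diet in either tissue. Of all genes, 0.00758% passed it in liver and 9.22% in lung. At an unadjusted p of at most 0.05 there were 0 of 5 in liver, where 3.58% of all genes were lower and 3.96% higher. There was 1 of 5 in lung, where 14.5% of all genes were lower and 15.6% higher. It was Acot9, a mitochondrial enzyme, with a log2 fold change of -0.36 ± 0.13 and an adjusted p of 0.111 in edgeR. Acot6, the next gene of the chromosome 12 cluster, had -1.20 ± 0.58 in liver with an adjusted p of 0.694.

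The acyl-CoA synthetases, which catalyse the opposite reaction, had 15 of 20 genes tested in each tissue. In liver 0 passed the adjusted threshold, and 1 was higher and 2 lower at an unadjusted p of at most 0.05, against 3.96% and 3.58% of all genes. In lung 3 fell and 0 rose in edgeR, where 4.43% of all genes fell, and 12 of the 15 had a negative sign. With each lung left out, 12 to 14 of 15 to 17 synthetases were negative, beside 7983 to 8860 of 17058 to 17227 genes. With all lungs in the fit, those that fell were Acsl1, the main long-chain synthetase of fat and muscle, by 0.98 ± 0.22 (adjusted p 0.0364), Acsm1, a medium-chain synthetase, by 1.17 ± 0.26 (0.0359), and Acss1, the mitochondrial acetyl-CoA synthetase, by 0.88 ± 0.21 (0.0398), all on the log2 scale.

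Of 14 tested genes of coenzyme A synthesis, breakdown and acyl-CoA binding, 2 rose in lung and 0 fell in edgeR, against 4.80% of all genes that rose, and 0 were called in liver, with 1 higher at an unadjusted p of at most 0.05, against 3.96% of all genes. Ppcdc, an enzyme of coenzyme A synthesis, rose by 1.12 ± 0.20 on the log2 scale (adjusted p 0.0218), and Acbd4, an acyl-CoA-binding protein, by 0.76 ± 0.20 (0.0484).

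PPARα and its partners were counted as well, since the receptor is known to act on several thioesterase genes. Ppara itself fell in lung by 2.00 ± 0.41 on the log2 scale (adjusted p 0.0312 in edgeR), the one gene called of 8 tested in lung, where 9.22% of all genes were called. In liver 0 of 11 were called, with 1 higher and 1 lower at an unadjusted p of at most 0.05, against 3.96% and 3.58% of all genes. Of 35 PPARα targets tested in liver, 27 had a negative sign, as did 7116 of the 13195 genes tested. At an unadjusted p of at most 0.05, 11 were lower and 0 higher, against 3.58% and 3.96% of all genes, and 0 passed the adjusted threshold, with a median log2 fold change of -0.34 beside -0.03 for all genes. The largest differences there were those of Pdk4 (-2.20), Cidec (-1.92), Ehhadh (-1.88) and Fgf21 (-1.58). Without CS replicate 2, 1 fell and 15 were lower at an unadjusted p of at most 0.05, beside 22 and 852 of all 13368 genes. Without CS replicate 1, 0 fell and 6 were lower, beside 0 and 329 of all 13430 genes. With each other liver left out, 0 fell and 7 to 15 were lower, beside 0 and 330 to 529 of all genes. In lung, 3 of 33 fell and 0 rose, against 4.43% and 4.80% of all genes. They were Acadvl by 1.64 ± 0.31 (adjusted p 0.0255), Etfdh by 1.04 ± 0.18 (0.0217) and Decr1 by 0.62 ± 0.14 (0.0388), 3 mitochondrial enzymes of fatty acid oxidation.

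These lung calls depend on single lungs, and not only on the one with skeletal muscle RNA. Over the whole table, where 802 genes rose and 740 fell in edgeR, 0 and 0 did so without CS replicate 3 (3890 genes at an unadjusted p of at most 0.05), 1 and 22 without CS replicate 1, 1 and 25 without CS replicate 2, and 2 and 7 without PS replicate 2. Without PS replicate 1 the counts were 1752 and 1197, and without PS replicate 3 they were 947 and 1309. Of 16 clock genes, 4 rose and 1 fell in lung in edgeR, against 4.80% and 4.43% of all genes, and 0 of the 16 had a diet difference unlike between lung and liver at the adjusted threshold, with 4 at an unadjusted p of at most 0.05, against 0.0323% and 11.4% of the 12398 genes that passed the filter in both tissues. Per1, Nr1d1, Nr1d2 and Ciart rose and Cry1 fell in edgeR, with log2 fold changes of 0.92, 1.29, 0.80, 2.62 and -0.79 and adjusted p of 0.0417, 0.0370, 0.0264, 0.0448 and 0.0332. In liver 11 of 16 clock genes were higher and 3 lower at an unadjusted p of at most 0.05, against 3.96% and 3.58% of all genes, and 0 passed the adjusted threshold, the lowest adjusted p in edgeR being 0.0974, for Bhlhe40 and Arntl. Without CS replicate 2, 7 rose and 1 fell there, beside 43 and 22 of all 13368 genes. With each other liver left out, 0 rose and 0 fell, beside 0 to 5 and 0 of all genes. In those fits 7 to 11 were higher and 2 to 3 lower at the unadjusted threshold, beside 370 to 589 and 329 to 529 of all genes. With all livers in the fit, Ciart had a log2 fold change of 3.92 and Dbp of 3.15. The time of day at which each mouse was killed is not given in the sources used here, and its part in the thioesterase values was not tested.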

How the data were processed

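The members and gene lists were chosen with earlier results of these data known. The authors aligned cleaned paired-end reads with HISAT2 2.0.5 to mm10 (GRCm38) and made the deposited counts per gene with featureCounts 1.5.0-p3. The annotation release and strand setting are not given in the sources used here. The deposited FPKM values are, per library, those counts divided by gene length and by 1 factor.

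From the counts, edgeR 4.0.16 (TMM, filterByExpr, robust quasi-likelihood test, R 4.3.3) compared the diets within each tissue, and lung with liver and the diet-by-tissue term in 1 model of 15 libraries, with Benjamini-Hochberg adjustment over all genes tested. CPM values use TMM library sizes, within a tissue for diet values and over all libraries for values per kilobase. Alternatives were DESeq2 1.42.0, limma 3.58.1 on log2(FPKM + 1) and log2(FPKM + 0.1), other scalings and filters, trends with length or GC content removed by loess, blocks, and each library left out. The model fits were tested on simulated data. A floor of 3 counts and 95% Poisson-based intervals were used for genes near 0. Named were all 8 members, list genes called for diet or among the 4 largest per list, the 2 genes most like a member among those whose mean log2 CPM reached 1 in both tissues, and genes sharing sequence with a member. Same-numbered CS and PS samples are different mice, so numbers were not used as pairs in the main fits. A block by number was run only as an alternative. Mouse was not in the main tissue fits, which treated the liver and lung of a mouse as separate samples. As the labels name it, mouse was a block in an alternative fit of the 6 mice with both tissues. Deviations of liver and lung correlated at -0.069 to 0.144 in those mice. No 2 libraries agreed within sampling noise. P-values measure the spread between mice.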

Additional observations from a re-analysis of the deposited data

Results flagged for a closer look

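Of 16 groups of livers tested with Dixon's criterion, 8 genes in each diet, 2 held a library far from its group, where chance flags about 1 in 20 groups. Acot7 was at 8.62 CPM in liver CS replicate 2, while the nearest CS liver was at 19.6 CPM. The same liver had the lowest CS values of Acot8, at 9.16 CPM, and of Acot1. Acot8 was at 28.1 CPM in liver PS replicate 2, while the nearest PS liver was at 19.8 CPM. The cause was not tested. No thioesterase had a diet difference that was unlike between liver and lung at an adjusted p under 0.05 in edgeR.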

How the results depend on the processing

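Depth limits the values of Acot3, Acot4 and Acot12 in lung, which had at most 23 counts in a library. The count of genes called for diet in liver, 1 higher and 0 lower, was 110 and 53 with DESeq2, 20 and 6 with no filter, and 5 and 1 with limma on log2(FPKM + 1). It was 4 higher with log2(FPKM + 0.1), 2 higher with at least 10 counts in every library, and 0 higher with the replicate block, the length trend removed or the GC trend removed. With each library left out it ranged from 0 to 43 higher and from 0 to 22 lower. In lung, 802 higher and 740 lower became 1611 and 1479 with DESeq2, 1220 higher with no filter, 495 higher with log2(FPKM + 1) and 528 higher with log2(FPKM + 0.1), and ranged from 0 to 1752 higher and from 0 to 1309 lower with each lung left out. The thioesterases called lower in lung, 0, became 1 (Acot1) with DESeq2, the replicate block and the length trend removed, and ranged from 0 to 1 with each lung left out.

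Between tissues, 6556 higher and 5317 lower genes on the CS diet became 11815 and 2285 with total counts, and 3258 and 3457 with at least 10 counts in every library. On the PS diet 6716 and 5438 became 12040 and 2327 with total counts, and 3429 and 3391 with at least 10 counts. Of the 6 thioesterases that passed the filter in both tissues, those called lower went from 5 to 1 on the CS diet and from 4 to 2 on the PS diet with total counts, and ranged from 4 to 5 and from 3 to 4 with each library left out. The thioesterases called higher on the CS diet, 1, became 0 over the 12 libraries of mice with both tissues and ranged from 0 to 1 with each library left out. On the PS diet, 0 became 1 with DESeq2's size factors, with DESeq2 and with at least 10 counts, 2 with total counts, and 0 to 1 with each library left out. For the diet-by-tissue term, 1 higher and 3 lower genes became 94 and 139 with DESeq2, 2 and 8 with no filter, 2 higher with at least 10 counts, and 0 and 0 with the mouse block and over 12 libraries, and ranged from 0 to 3 and from 0 to 9 with each library left out.

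Signs turned for values near 0. Acot8 in liver was 0.00066, 0.014 and 0.0044 with log2(FPKM + 1), log2(FPKM + 0.1) and the replicate block, and ranged from -0.35 to 0.10 with each liver left out, as Acot7 did from -0.0085 to 0.33. In lung Acot2 ranged from -0.073 to 0.18 and Acot8 from -0.34 to 0.027. Acot2 between tissues on the PS diet was 1.11 with total counts, 0.017 with at least 10 counts, 0.049 with the mouse block and 0.050 over 12 libraries. The diet-by-tissue term of Acot8 was 0.15 over 12 libraries, and with each library left out the term ranged from -0.35 to 0.56 for Acot1, -1.03 to 0.087 for Acot4, -0.20 to 0.16 for Acot7, -0.26 to 0.21 for Acot8 and -0.54 to 0.034 for Acot13. The cause was not tested. CS and PS samples with the same replicate number share only a number, since the correlations of their deviations were -0.41 to -0.02 in liver and -0.01 to 0.09 in lung. With that number as a replicate block, Acot1 in lung was -1.38 with an adjusted p of 0.0282 in edgeR.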
